A study of Homo sapiens with 6 samples.

Results

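Most of the enzymes described here make asparagine, proline and glutamine or move amino groups and carbon to and from glutamate. PCK2 turns oxaloacetate into phosphoenolpyruvate. The members are ASNS, PYCR1, ALDH18A1, GPT2, GOT1, PCK2, GLUL and OAT. They were taken by gene symbol, and 7 of the 8 were measured, out of 18417 genes tested, each by the probe set annotated to that gene alone with the highest mean over all arrays. GPT2, the mitochondrial alanine aminotransferase, was not analysed here. The cells were RPMI 8226, an established human line derived from the malignant plasma cells of multiple myeloma. All were cultured in RPMI 1640 medium with 10% fetal calf serum and 2 mM added L-glutamine. The unirradiated group received 0 Gy and the other group 6 Gy of carbon ions, a densely ionising particle radiation, and RNA of both was taken 1 day later. Each group holds 3 arrays (n = 3 per group for every mean ± SD below). The labels do not say whether the samples of a group were separate cultures, so p-values cover only the variation among these arrays and that variation may be technical.

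Asparagine synthetase (ASNS) transfers the amide of glutamine to aspartate and releases glutamate. Proline is built from glutamate by ALDH18A1 and then PYCR1 in mitochondria, and OAT feeds the same intermediate from ornithine. GOT1 exchanges amino groups between aspartate and glutamate in the cytosol, GLUL joins ammonia to glutamate to give glutamine, and PCK2 turns oxaloacetate into phosphoenolpyruvate in mitochondria. When amino acids run short or unfolded proteins accumulate, the integrated stress response raises translation of the transcription factor ATF4. ATF4 binds C/EBP-ATF response elements, of which the one in the ASNS promoter is a classic example. Plasma cells secrete large amounts of protein and are known for high amino acid demand and, in myeloma, for reliance on glutamine.

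RefSeq promoter windows (GRCh38.p14, 250 bases before to 50 after a start) were found for 6 of the 8 enzymes, all but GPT2 and PYCR1. Stretches before the start are shown for 4 of them, to set the known element of ASNS beside a letter match in GOT1, which was not called, and beside windows without one. A match shows the letters only, not a working element. Capitals mark matches, on either strand, to TGATGNAA (the core of the C/EBP-ATF response element), to CACGTG (the E-box bound by MYC and its relatives) and to GTTACA (described in ASNS as a second part of the response unit). These motifs do not overlap one another in the stretches shown, which run 5′ to 3′ in the direction of transcription. They lie at chr7:97872409-97872518 (minus strand) for ASNS, chr14:24094201-24094310 (plus strand) for PCK2, chr10:99430775-99430854 (minus strand) for GOT1 and chr10:95656812-95656881 (minus strand) for ALDH18A1.
ASNS: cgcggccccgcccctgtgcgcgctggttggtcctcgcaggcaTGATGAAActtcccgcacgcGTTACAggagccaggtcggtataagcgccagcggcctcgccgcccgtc
PCK2: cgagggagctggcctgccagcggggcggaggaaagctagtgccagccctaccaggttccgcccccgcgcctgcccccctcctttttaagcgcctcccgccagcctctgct
GOT1: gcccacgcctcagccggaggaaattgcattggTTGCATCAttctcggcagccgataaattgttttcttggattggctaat
ALDH18A1: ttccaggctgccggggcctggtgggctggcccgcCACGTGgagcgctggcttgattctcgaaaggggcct
In ASNS the first motif began at base -68 and GTTACA at base -48, counted back from the start. GOT1 held the first motif on the opposite strand at base -198, and ALDH18A1 held CACGTG at base -136. The windows of PCK2, GLUL and OAT held none of the 3. Over all 35116 windows of the table, 3.62% held TGATGNAA, 7.26% CACGTG and 6.66% GTTACA.

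The deposited values were read as log2 intensities, a base inferred from their range, and every fold below rests on it. Array medians lay between 5.64 and 5.72, and arrays correlated at 0.996 to 0.998 within a group and 0.992 to 0.994 between groups. By the probe sets used, the 7 enzymes lay above the upper quartile of the table on all 3 unirradiated arrays. A second GLUL probe set read 7.81 and 7.90 on unirradiated replicates 1 and 3, under their upper quartiles of 7.96 and 7.92. On unirradiated replicate 2 it read 7.97, against an upper quartile of 7.96. Probe sets differ in brightness, so levels are not ranked between genes. Of 9 plasma cell markers, 8 had a mean above the upper quartile of all values, and SLAMF7 (4.63 unirradiated, 5.18 irradiated) was dim. The plasma cell list averaged 10.44 to 10.46 on unirradiated and 10.40 to 10.45 on irradiated arrays. Of its 9 genes, however, 3 were called, beside 14.5% of all genes (8.18% lower and 6.35% higher). CD38 fell by 0.42 (limma adjusted p 0.0127), XBP1 fell by 0.23 (0.0405) and SLAMF7 rose by 0.55 (0.00271). No T cell marker (0 of 4) and no myeloid marker (0 of 4) reached that level, while 1 of 3 B cell markers (MS4A1, encoding CD20) and 2 of 4 epithelial markers (EPCAM and KRT18) did. Averaged over its markers, the T cell list lay at 5.04 to 5.25 on unirradiated and 5.21 to 5.37 on irradiated arrays and the myeloid list at 4.72 to 5.00 and 5.06 to 5.14. The B cell list lay at 6.33 to 6.49 and 6.66 to 6.74, and the epithelial list at 7.54 to 7.61 and 7.56 to 7.64. MS4A1 differed by 0.54, the myeloid marker ITGAM by 0.52 and EPCAM by -0.39, and the part of these and of the plasma cell genes in the results was not tested.

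One day after carbon ions, the mRNAs of ASNS and PCK2 had fallen to about the same degree, PYCR1 fell by less, and the brighter of the GLUL probe sets rose slightly. The other GLUL probe set did not pass, and which gene the brighter one reads is uncertain, as set out under GLUL. ALDH18A1, GOT1 and OAT did not pass the test. So 3 of the 7 measured enzymes fell and 1, GLUL, rose by that probe set. Over all 18417 genes 14.5% were called, 8.18% lower and 6.35% higher (limma, two-sided, Benjamini-Hochberg adjusted p under 0.05 over all genes). That share includes dim genes, while the 7 enzymes lay above the upper quartile by the probe sets used. The share among comparably bright genes was not computed. With dim genes left out, 3178 genes were called against 2676 in the main fit, although fewer genes were tested. "Rose" and "fell" are used of called genes only. The median log2 difference of the 7 was 0.01, against 0.04 over all genes. Values of the irradiated and unirradiated arrays did not overlap for 4 of the 7, as for 34.7% of all genes (15.7% lower and 19% higher). In bulk RNA, fewer cells with a transcript and less of it per cell cannot be told apart.

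**Figure D1:**
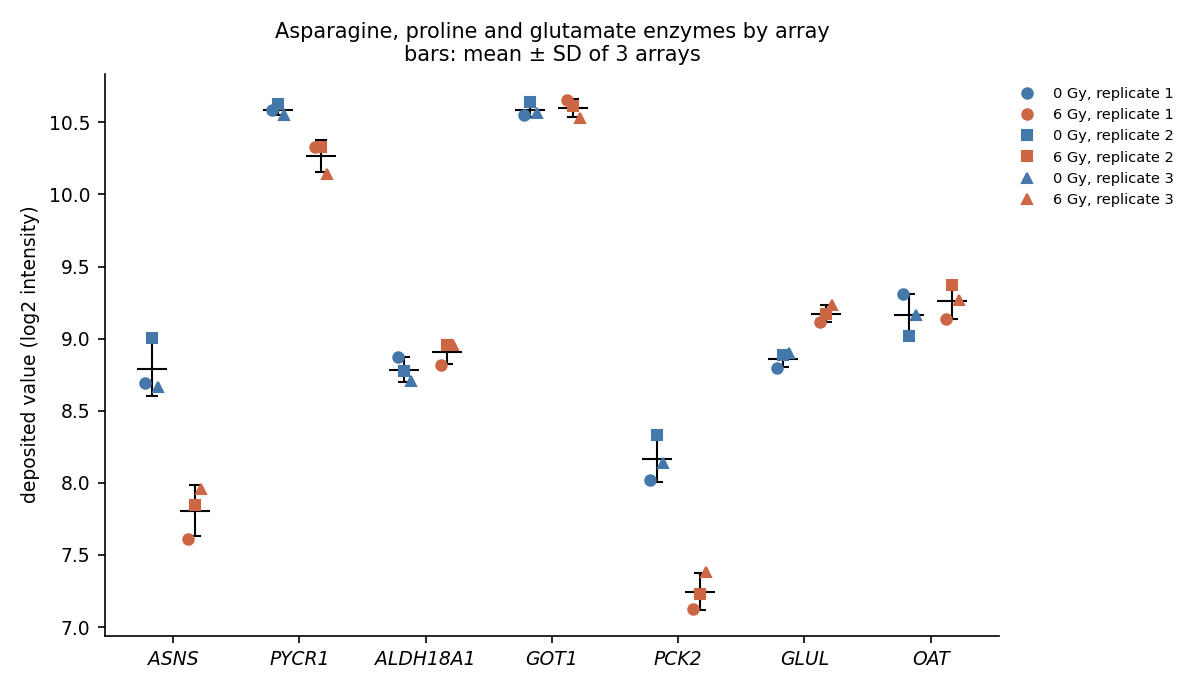
Deposited log2 intensity of the 7 measured enzymes on each array, blue for 0 Gy and orange for 6 Gy, with black bars for the mean ± SD of 3 arrays. The 2 colours are fully apart for ASNS, PCK2, PYCR1 and GLUL and overlap for ALDH18A1, GOT1 and OAT.

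ASNS, the only enzyme in the group that makes asparagine, read 8.69, 9.01 and 8.67 on unirradiated replicates 1 to 3 and 7.61, 7.85 and 7.96 on irradiated replicates 1 to 3. The lowest unirradiated array stood 0.71 above the highest irradiated one, a gap wider than the whole range within either group. The mean went from 8.79 ± 0.19 to 7.81 ± 0.18 (SD), a log2 difference of -0.98 ± 0.11 (SE) or 1.98-fold lower (95% interval 1.66 to 2.36), with a limma adjusted p of 5.71e-04. Its promoter is the one printed above with both parts of the response unit. Among all genes, 64 had a log2 difference below that of ASNS.

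PCK2, the mitochondrial phosphoenolpyruvate carboxykinase, read 8.02, 8.33 and 8.14 without and 7.13, 7.23 and 7.38 with irradiation. The groups were again fully apart, by 0.64. The mean fell from 8.16 ± 0.16 to 7.25 ± 0.13 (SD), a log2 difference of -0.92 ± 0.10 (SE) or 1.89-fold lower (95% interval 1.63 to 2.19), with a limma adjusted p of 3.47e-04. Of all 18417 genes, 82 (0.445%) were lower by 0.9 or more, and both ASNS and PCK2 were among them. The 0.9 level was not set in advance and lies just under the difference of PCK2, so this share is a description only. The calls of ASNS and PCK2 held with any 1 array left out.

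Of the 3 enzymes that make proline or its precursor, PYCR1 passed the test and the others did not. PYCR1, which reduces pyrroline-5-carboxylate to proline in the last step, read 10.58, 10.63 and 10.55 on unirradiated and 10.33, 10.33 and 10.14 on irradiated arrays. All irradiated values lay below all unirradiated ones, with replicate 3 the lowest. Its mean went from 10.59 ± 0.04 to 10.27 ± 0.11 (SD), a log2 difference of -0.32 ± 0.07 (SE), that is 1.25-fold lower (limma adjusted p 0.0198). The call ended without unirradiated replicate 1 (adjusted p 0.0629) or unirradiated replicate 2 (0.0758), and when p-values were adjusted over all 33297 probe sets (0.0558).

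ALDH18A1, which makes pyrroline-5-carboxylate from glutamate, read 8.87, 8.78 and 8.70 without and 8.81, 8.96 and 8.95 with irradiation. These groups overlapped, with irradiated replicate 1 below unirradiated replicate 1. Its log2 difference was 0.12 ± 0.08 (SE, 95% interval -0.04 to 0.29, limma adjusted p 0.303). OAT, which makes the same intermediate from ornithine, read 9.31, 9.02 and 9.16 against 9.13, 9.38 and 9.27, and the arrays of both groups were interleaved. Its log2 difference was 0.10 ± 0.09 (SE, 95% interval -0.11 to 0.31, limma adjusted p 0.529). The 95% interval of PYCR1, -0.49 to -0.15, lay wholly below those of ALDH18A1 and OAT; the difference between these genes was not itself tested.

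GOT1, the cytosolic aspartate aminotransferase, read 10.55, 10.64 and 10.56 without and 10.65, 10.61 and 10.53 with irradiation, and no array stood apart. Its log2 difference was 0.01 ± 0.07 (SE, 95% interval -0.14 to 0.17, limma adjusted p 0.914), and the sign turned to -0.02 with array medians subtracted. The window of GOT1, printed above, holds a match to the same motif as that of ASNS.

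GLUL, glutamine synthetase, was the one enzyme of the 7 called higher, by the brighter of its probe sets. It read 8.79, 8.89 and 8.90 on unirradiated and 9.12, 9.17 and 9.24 on irradiated arrays, and every irradiated array was above every unirradiated one. The mean went from 8.86 ± 0.06 to 9.17 ± 0.06 (SD), a log2 difference of 0.31 ± 0.07 (SE) or 1.24-fold higher, with a limma adjusted p of 0.0154. Without unirradiated replicate 1 the call ended (adjusted p 0.0668), and 0 of the 7 enzymes were then called higher by limma (1 at an unadjusted p under 0.05).

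A second probe set annotated to GLUL alone gave a smaller difference. It read 7.81, 7.97 and 7.90 without and 8.23, 8.05 and 8.08 with irradiation, so the groups were apart by 0.09 only. Used in place of the other, it differed by 0.23 ± 0.08 (SE) on the log2 scale and did not pass (limma adjusted p 0.0799). RefSeq places GLUL on chromosome 1 and its pseudogene GLULP4 on chromosome 9. The 8 annotated probe sets next in number to the dimmer GLUL probe set were all named for genes on chromosome 1, and the 8 next to the brighter one for genes on chromosome 9. Whether the brighter probe set reads GLUL, a near copy of it or both was not tested, and the rise of GLUL is uncertain for that reason.

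**Figure D2:**
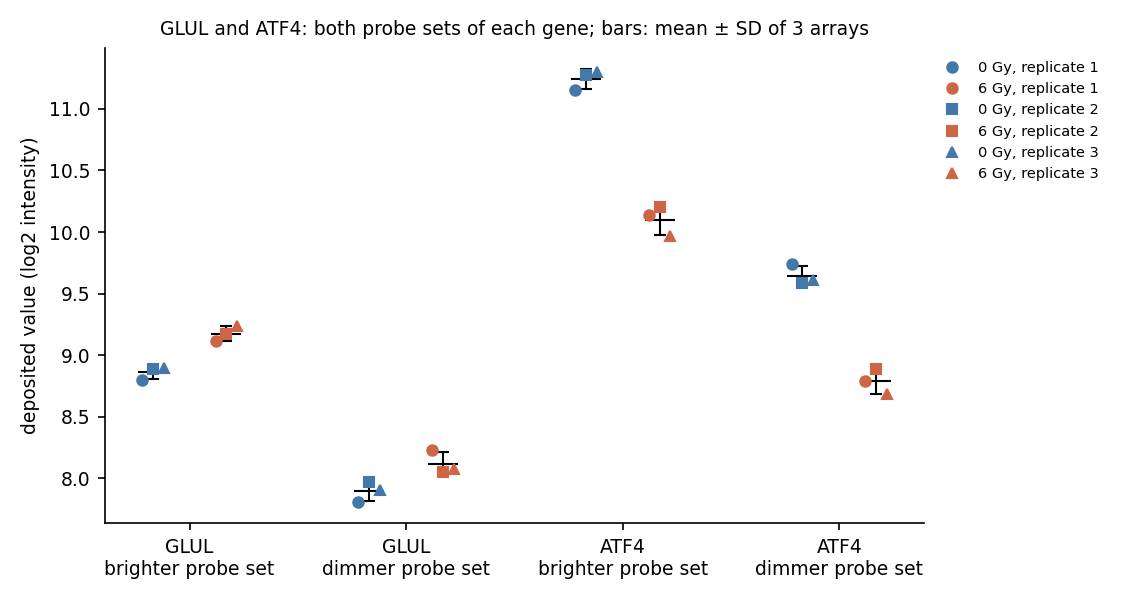
Deposited log2 intensity of both probe sets of GLUL and of ATF4 on each array, blue for 0 Gy and orange for 6 Gy, with the mean ± SD of 3 arrays. Both GLUL probe sets are higher with irradiation, the dimmer by 0.23 and the brighter by 0.31, and both ATF4 probe sets are lower (differences of -0.86 and -1.14).

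**Figure D3:**
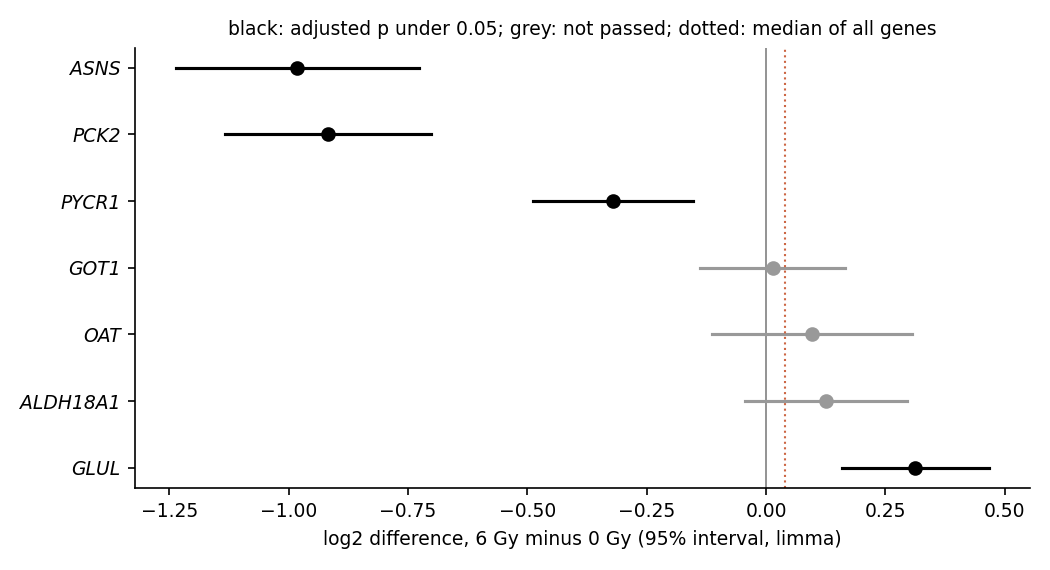
Log2 difference (6 Gy minus 0 Gy) of the 7 enzymes with its 95% interval from limma, black where the adjusted p is under 0.05; the dotted line is the median of all genes, 0.04. ASNS (-0.98) and PCK2 (-0.92) lie far to the left, PYCR1 (-0.32) between them and 0, and GLUL (0.31) to the right.

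Of the isozymes, which run the same reaction elsewhere in the cell or in other tissues, none was called. PYCR3, the cytosolic pyrroline-5-carboxylate reductase, differed by 0.10 ± 0.08 (SE, limma adjusted p 0.460), where PYCR1 differed by -0.32. The log2 ratio of PYCR1 to PYCR3 was 2.21, 2.39 and 2.17 on unirradiated and 1.83, 1.85 and 1.85 on irradiated arrays, a shift of -0.42 ± 0.07 (SE) with no overlap. PCK1, the cytosolic counterpart of PCK2, read 3.94 to 4.10, near the lower quartile of the arrays (3.89 to 3.97), so a change in it may not be measurable here and nothing is read from its ratio to PCK2. GOT2, the mitochondrial partner of GOT1, read 12.17 to 12.33 without and 12.18 to 12.26 with irradiation, and the GOT1 to GOT2 ratio shifted by 0.03 ± 0.06 (SE). Exact two-sided permutation tests over the 20 splits of the arrays gave p = 0.1 for PYCR1 and PYCR3 and 0.7 for GOT1 and GOT2 (0.15 and 0.7 adjusted over the 3 pairs run, PCK2 with PCK1 included). With 3 arrays against 3 the smallest p possible is 0.1. GPT, the cytosolic alanine aminotransferase, differed by 0.11 ± 0.10 (SE, limma adjusted p 0.498).

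The 6 lists of enzymes and carriers next to the group in metabolism held 90 measured genes, of which 5 rose and 5 fell (11.1%). Over all genes, dim ones included, 14.5% were called. Of 12 measured genes of aspartate and asparagine metabolism, 1 fell and 1 rose. ASS1, which joins aspartate to citrulline on the way to arginine, read 11.68, 11.77 and 11.59 without and 10.88, 10.94 and 11.01 with irradiation, 1.67-fold lower (log2 difference -0.74 ± 0.07, SE, limma adjusted p 2.45e-04). DDO, D-aspartate oxidase, was higher by 0.39 (adjusted p 0.0160, but 0.0662 without unirradiated replicate 1), and CAD, which starts pyrimidine synthesis, differed by -0.16 (0.196). The list median was -0.0044.

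Of 16 proline and ornithine genes, 2 rose and 0 fell by limma, with 1 lower at an unadjusted p under 0.05; the median was 0.12. That gene, SAT1, which acetylates polyamines and was named after its value was seen, differed by -0.26 (limma adjusted p 0.138) and fell by 0.37 without irradiated replicate 3 (0.0223). The share of all genes at an unadjusted p under 0.05 is not given here. Counts at that level, in this list and those below, are therefore not read as a trend. P4HA2, a catalytic subunit of the prolyl hydroxylase of collagen, read 7.38, 7.53 and 7.24 against 7.96, 8.11 and 8.21, which is 1.63-fold higher (log2 difference 0.71 ± 0.09, SE, limma adjusted p 0.00133). ARG2, the mitochondrial arginase that yields ornithine, was higher by 0.29 with an adjusted p of 0.0487. Its call ended without unirradiated replicates 1 and 3 and without any irradiated array (adjusted p up to 0.158). P4HA3, another prolyl hydroxylase subunit, dim at an unirradiated mean of 4.38, differed by 0.20 (0.0779).

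None of 13 measured genes that use or make glutamate and glutamine was called by limma, and 2 were higher and 0 lower at an unadjusted p under 0.05. Their median was 0.06. GFPT1, which takes glutamine into hexosamine synthesis, differed by 0.21 (limma adjusted p 0.0699), NAGS, which makes N-acetylglutamate, by 0.20 (0.146) and PFAS, a glutamine-using enzyme of purine synthesis, by -0.14 (0.199). Of 13 other aminotransferases and relatives, 2 fell and 0 rose (3 higher at an unadjusted p under 0.05), with a median of 0.11. PSAT1, which uses glutamate to make phosphoserine, read 10.85, 10.95 and 10.84 without and 9.86, 9.88 and 9.93 with irradiation. That is 1.99-fold lower (log2 difference -0.99 ± 0.07, SE, limma adjusted p 2.72e-05), close in size to ASNS. PHYKPL, a lyase that breaks down phosphohydroxylysine, fell by 0.50 (adjusted p 0.00691), and AGXT2, dim at an unirradiated mean of 4.10, differed by 0.25 (0.0723).

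**Figure D4:**
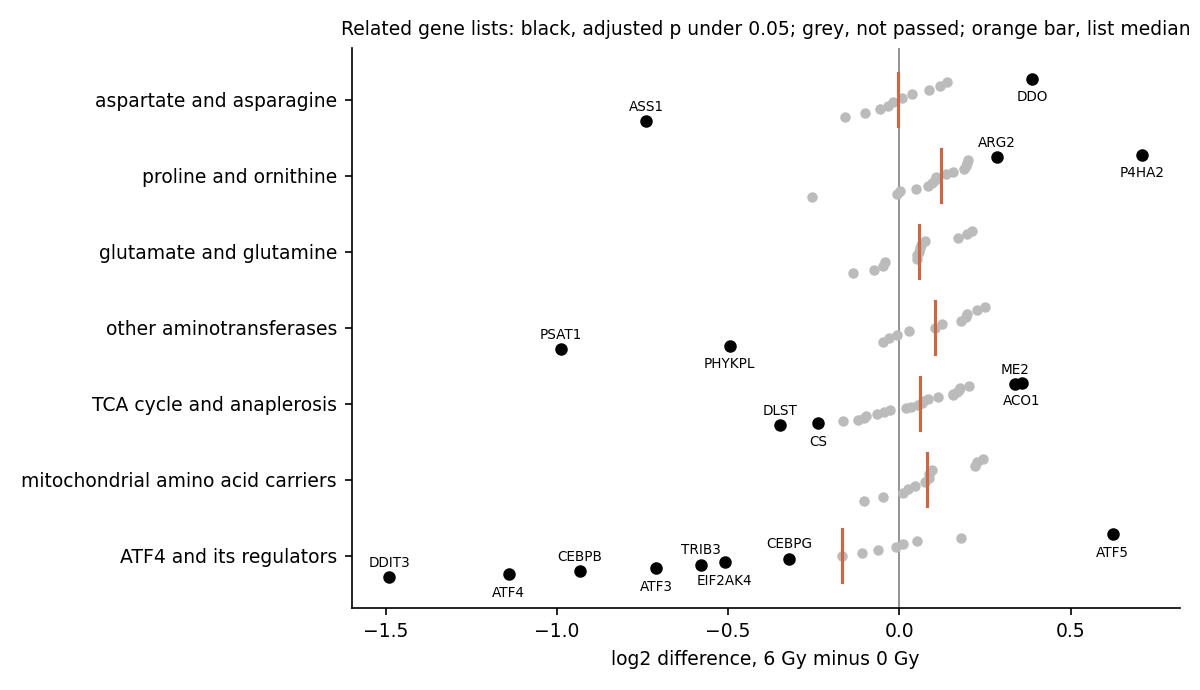
Log2 difference (6 Gy minus 0 Gy) of each measured gene in the 7 related lists, black and named where the limma adjusted p is under 0.05, with an orange bar at the list median. Most points lie near 0, and the ATF4 list holds 7 of the 12 falls. In their lists, ASS1, PSAT1 and PHYKPL stand apart below 0, and P4HA2 (0.71) and ATF5 (0.62) above 0.

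Of 24 measured genes of the TCA cycle and the reactions that feed it, 2 rose, 2 fell and 20 did not pass, with a median of 0.06. The mitochondrial malic enzyme gene ME2 rose by 0.34 and ACO1, the cytosolic aconitase, by 0.36. DLST, a subunit of the oxoglutarate dehydrogenase complex, fell by 0.35 and citrate synthase (CS) by 0.24. Of these, ME2 kept its limma call with any 1 array left out. The call of DLST ended without unirradiated replicate 2 (adjusted p 0.0544), that of ACO1 without any unirradiated array or irradiated replicate 3 (up to 0.0810) and that of CS without any 1 of the 6 (up to 0.170). None of 12 mitochondrial amino acid and pyruvate carriers was called by limma; 3 were higher and 0 lower at an unadjusted p under 0.05, and the median was 0.08. SLC25A44, a carrier of branched-chain amino acids, differed by 0.23 (adjusted p 0.0568) and the pyruvate carrier subunit MPC2 by 0.22 (0.134). The glutamate carrier SLC25A18, dim at an unirradiated mean of 4.08, differed by 0.24 (0.165).

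In the list of ATF4 with genes that act on it or are driven by it, 7 of 15 measured genes fell and 1 rose. Over all genes, dim ones included, 8.18% were lower and 6.35% higher. The list median was -0.17. ATF4 read 11.15, 11.28 and 11.30 without and 10.14, 10.20 and 9.97 with irradiation, a log2 difference of -1.14 ± 0.08 (SE, limma adjusted p 3.80e-05). A second ATF4 probe set fell by 0.86 (9.74, 9.58 and 9.61 against 8.79, 8.89 and 8.69), so the direction was the same with a smaller size. DDIT3, whose product CHOP promotes cell death under stress, fell by 1.49 and CEBPB, a dimer partner of ATF4, by 0.93. The others that fell were ATF3 (-0.71), the pseudokinase gene TRIB3 (-0.58), CEBPG (-0.32) and EIF2AK4 (-0.51), which encodes GCN2, the kinase that senses amino acid shortage. The CEBPG call ended without unirradiated replicates 1 and 2 and irradiated replicate 1 (adjusted p up to 0.0886). The one gene that rose was ATF5, a relative of ATF4, from 8.42, 8.33 and 8.45 to 9.12, 8.89 and 9.06, or 1.54-fold higher (log2 difference 0.62 ± 0.08, SE, limma adjusted p 0.00105). ATF3, TRIB3, CEBPG, EIF2AK4, ATF5 and CS were named after their values were seen.

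Across all 18417 genes, PCK2 had the profile nearest to that of ASNS over the 6 arrays, with a root mean square distance of 0.07 between the mean-centred log2 values. Next were LINC01296 (0.08), GMEB1 (0.08), ZBTB14 (0.09) and IKBKB (0.10). By the same distance PSAT1 ranked 8, ASS1 31 and CEBPB 213 (at 0.25), all of them chosen after their values were seen. For GLUL, by its brighter probe set, the nearest were CNOT4 and IPO11 at 0.02 and GRINA, CARD17P and CELF3 at 0.03. What that probe set reads is uncertain, and no distances were taken from the dimmer one. These distances describe 6 arrays in 2 groups, so genes with a like difference between doses are near each other.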

How the data were processed

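The authors deposited 1 value per probe set and array, read here as log2 intensity (33297 probe sets, 6 biotin-labelled arrays of total RNA extracted with Trizol, per the labels' protocols). How they were normalized, background-corrected and with what software is not given in the sources used here. No detection calls were used, and the number of arrays limits the precision. The platform annotation, which can be old, named a single gene on 19460 probe sets and more than 1 on 1754, and left 12083 unnamed; only the first were used, and 19429 matched RefSeq by Entrez ID. Irradiated and unirradiated arrays were compared with limma 3.58.1 in R 4.3.3 (lmFit, eBayes, no covariate, no filter), with p-values adjusted over all 18417 genes. The steps were tested on simulated data, but how well differences as small as those of PYCR1 and GLUL are recovered is not reported here. Intervals cover 95% on the moderated distribution (4 residual and 5.85 prior degrees of freedom). The members, gene lists and tests were chosen with earlier results of these data known. Named were the members, their isozymes, ATF4, the 3 smallest p-values of each list and the 5 profiles nearest to ASNS and to GLUL; a further listed gene is not reported here. The search for GTTACA and the fit with the other GLUL probe set were added after seeing the data. Other alternatives were a replicate block, each array left out, the dimmest 33.3% of genes left out, quantile normalization, array medians subtracted, an intensity trend with a robust prior, the mean of a gene's probe sets, all probe sets, and an adjusted p under 0.01. The values come with no genome build; sequences are those of RefSeq on GRCh38.p14. Figures were drawn with matplotlib 3.10.9 under Python 3.11.15.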

Additional observations from a re-analysis of the deposited data

How the results depend on the processing

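ASNS and PCK2 kept their direction and their call in every alternative run. PYCR1 differed by -0.32 with all probe sets (adjusted p 0.0558) and at an adjusted p under 0.01, and did not pass in either; with an array left out it ran from -0.35 to -0.26. GLUL did not pass with its other probe set (0.23) or at an adjusted p under 0.01 (0.31), and ran from 0.28 to 0.34 with an array left out. GOT1, never called, turned to -0.017 with array medians subtracted and ran from -0.013 to 0.047 with an array left out. The number of changed genes ran from 1471 to 2184 with an array left out and was 1077 at an adjusted p under 0.01, where 0 enzymes were higher by limma (1 at an unadjusted p under 0.05; 0 to 1 with an array left out). Against 2676 in the main fit, the number was 3237 with an intensity trend and 3178 with dim genes left out. It was 2884 with array medians subtracted, 2841 with quantile normalization, 2705 with probe sets averaged and 2091 with all probe sets. The labels number samples 1 to 3 in both groups, but the deviations of same-numbered arrays from their group means correlated across genes at -0.04, 0.10 and -0.11. The numbers were thus not taken as pairs, and a fit with that number as a replicate block called 1919 genes, and the calls of the 7 enzymes stayed as they were, PYCR1 at an adjusted p of 0.0368, while ARG2, ACO1, CS and CEBPG missed the threshold. With all probe sets, DDO (adjusted p 0.0545), ARG2 (0.115), ACO1 (0.0715), CS (0.0962) and CEBPG (0.0667) missed it too, as did ARG2 with array medians subtracted (0.0546). GFPT1 and SLC25A44 passed it with dim genes left out, with quantile normalization and with an intensity trend. The values carry no detection calls, which limits what can be said of dim genes such as PCK1, AGXT2, P4HA3 and SLC25A18.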

Other observations

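Among tested genes with a promoter window, those whose window held TGATGNAA were called about as often as all of them. Of 511 such genes, 45 (8.81%) were lower and 27 (5.28%) higher by limma, beside 8.67% lower and 6.15% higher of all 14239 tested genes with a window. Their median log2 difference was 0.041, beside 0.035 of all genes with a window. ASNS and GOT1, both with a match, differed by -0.98 and 0.01. Of 1557 genes with CACGTG, 11.4% were lower and 4.88% higher, with a median of 0.01. Among the enzymes with a window, only ALDH18A1 held that motif. Of 1011 genes with GTTACA, 8.61% were lower and 6.13% higher. These are counts, with no test.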
